A study of Saccharomyces cerevisiae with 54 samples.

Results

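Ty1 elements are the most numerous retrotransposons of the budding yeast Saccharomyces cerevisiae, and in these arrays their transcripts were lower in the non-laboratory strains than in the laboratory strain they were compared with. A Ty1 element is flanked by long terminal repeats, and the promoter in the upstream repeat drives a single RNA that is both messenger and genome of the element. The RNA holds a pair of overlapping reading frames. The first, Gag, encodes the coat protein of the virus-like particle, and the second is read only as a Gag-Pol fusion after a ribosomal frameshift and supplies protease, integrase and reverse transcriptase. Transcription of Ty1 depends on activators of the filamentous growth pathway, such as Ste12 and Tec1, and is repressed in cells that carry both mating types.

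The reading frames described here were 53 of 55 listed Ty1 Gag and Gag-Pol frames, out of 6264 genes on the arrays, and the 2 others (YDR210C-C and YDR210C-D) were not analysed here. They comprised 26 Gag and 27 Gag-Pol frames on 12 chromosomes, as read from their systematic names, with up to 8 frames on a chromosome. In 25 elements both frames were measured, counting pairs of listed frames that overlap in the reference genome. YAR009C, YAR010C and YER160C had no such partner. Members were chosen by name and not by their values. The copies are nearly identical in sequence, so an oligonucleotide designed for one copy can bind the transcript of many. The frames were therefore read as a single signal with differences between probes, and not as independent genes.

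RNA of 17 strains, B1, I14, K1, K9, M22, M8, PR, RM11a, SB, Y1, Y10, Y12, YJM269, YJM308, YJM789, YPS1009 and YPS163, was set against RNA of the diploid DBY8268 on 54 arrays of 70-base oligonucleotides. Each strain had 3 arrays, or 4 for M8, Y10 and YPS163, and 18 arrays carried the strain in Oyster 550 and the other 36 in Oyster 650. All cultures, DBY8268 included, were untreated. They grew in YPD, a rich glucose medium, for 3 doublings at 30 °C until their optical density was about 0.5. DBY8268 is of the S288c background, is homozygous for ho and GAL2 and carries ura3-52 and a ura3 deletion. By the study's account RM11a and YJM789 are haploid. The oligonucleotides were designed on the S288c genome, and each strain is a single isolate. Values are log2 ratios of the strain over DBY8268, so DBY8268 stands at 0 and -1 means 1 halving. RNA ratios give no number of elements per genome, so fewer copies and less RNA per copy cannot be told apart here. The part of sequence differences between the strains' elements and the probes in these ratios was not tested either.

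Between 3393 and 5897 genes had a value on an array, and 19.1% of all values were missing. In the haploid RM11a the a-specific genes with a value had a median log2 ratio of 6.18, and in the haploid YJM789 the alpha-specific genes had 7.44. The median of each list over the other 15 strains was -0.19 for a-specific and -0.37 for alpha-specific genes. These haploid medians rest on 4 of 6 a-specific genes in RM11a and 3 of 4 alpha-specific genes in YJM789. Of the opposite list, 1 gene had a value in each, at -0.07 in RM11a and -0.18 in YJM789. RM11a thus carried a-specific and YJM789 alpha-specific markers, with too few values to describe the opposite type. Replicate 1 of YPS163 and replicate 3 of RM11a had the fewest Ty1 values, with 36 and 35 of the 53 frames missing, and the main values of these strains are given with and without them.

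The Ty1 signal of an array was the median log2 ratio over its frames with a value. It was below 0 on all 54 arrays, between -6.00 and -0.32. The deepest strain mean was that of M22, at -5.68 ± 0.28 (SD, n = 3), about 51.4 times below DBY8268. Its arrays read -5.60, -5.45 and -6.00. PR followed at -5.63 ± 0.45 (n = 3), with arrays at -5.90, -5.11 and -5.88. In M8 the 4 arrays read -5.60, -5.23, -5.64 and -5.60, a mean of -5.52 ± 0.19, the smallest spread of any strain. The array ranges of these 3 strains overlapped.

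RM11a, a haploid, averaged -5.43 ± 0.50 (n = 3), with arrays at -5.87, -5.54 and -4.89, and without the array that lacked most frames it averaged -5.70. SB averaged -5.16 ± 0.63 and I14 -4.59 ± 0.53 (n = 3 each). The oak strain YPS1009 averaged -4.36 ± 0.37, YJM269 averaged -4.13 ± 0.62 and K1 averaged -3.77 ± 0.41 (n = 3 each). All of these strains were more than 10 times below DBY8268.

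The oak strain YPS163 had arrays at -1.96, -4.37, -4.42 and -4.91, and its mean was -3.92 ± 1.33 (n = 4). The high array was the one with 36 missing frames, and without it the mean was -4.57 ± 0.30, beside that of I14.

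Closer to DBY8268, Y12 averaged -2.95 ± 0.45, K9 -2.94 ± 0.71 and B1 -2.49 ± 0.32 (n = 3 each). Y10 had the widest spread after YPS163, with arrays at -1.22, -1.26, -2.28 and -3.37 and a mean of -2.03 ± 1.02 (n = 4). Y1 averaged -1.65 ± 0.52 (n = 3). YJM308 read -1.11, -1.53 and -0.95, a mean of -1.20 ± 0.30. YJM789, the other haploid, was nearest to DBY8268, at -0.73, -0.32 and -0.97, a mean of -0.67 ± 0.33, or 1.59 times below it. The 2 haploids differed, since the arrays of RM11a and YJM789 did not overlap.

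**Figure D1:**
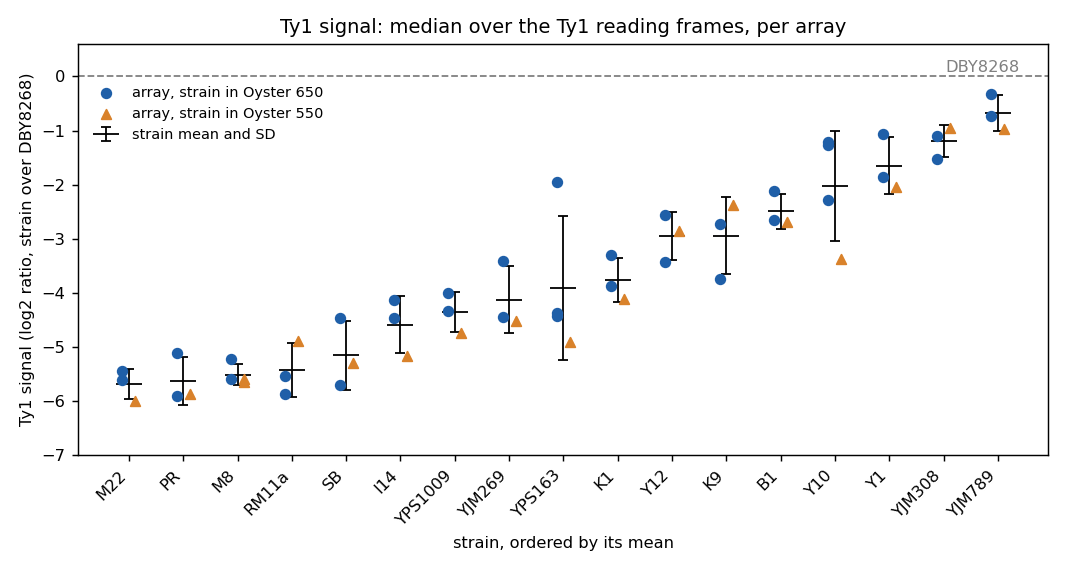
Ty1 signal of each array (median log2 ratio over the Ty1 frames with a value, strain over DBY8268) in the 17 strains ordered by their mean, with the strain mean and SD in black and the dye of the strain as colour and shape. Every array lies below the dashed line of DBY8268, from -6.00 in M22 to -0.32 in YJM789, and replicate 1 of YPS163 (-1.96) lies above the other 3 arrays of its strain.

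The ends of this order were not fixed. PR or RM11a had the lowest mean in place of M22 under 7 of 11 alternatives, and YJM308 had the highest in place of YJM789 under 3. Neighbours in the order were not separated. In each of the 16 adjacent pairs of strains the arrays of both strains overlapped. Whether the strains form separate classes was not tested. Over all 136 pairs of strains, the arrays of 90 pairs did not overlap, and 98 did not when the 2 arrays with the fewest frames were left out. The order was little changed by the dye. Strain means from arrays in Oyster 550 and from arrays in Oyster 650 correlated at a Pearson r of 0.92 over the 17 strains, which share slides and the DBY8268 sample, while the Oyster 550 value was the lower one in 13 strains (median difference -0.44). All 18 Oyster 550 arrays lay on slide series yG6. In the 14 strains with arrays on both, the signal on yG6 minus that on yG5 ranged from -1.60 in Y10 to 0.37 in YJM308, with a median of -0.38. In M22, RM11a and YJM789, whose arrays were all on yG6, the difference between dyes lay between -0.47 and 0.81. The part of dye and slide in these differences was not tested.

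The frames were then tested one by one in limma, in a single fit over all genes with a coefficient per strain and a false discovery rate of 0.01 within a strain. This asked which frames were lower or higher than in DBY8268. Of 898 frame and strain pairs, 785 (87.4%) were lower and 0 were higher, while over all genes 4.88% of pairs were lower and 3.86% higher. All genes include the Ty frames, and outside Ty elements 3.82% of pairs were lower and 3.91% higher. At an unadjusted p under 0.05 in limma 844 Ty1 pairs were lower and 0 higher. Without the 2 arrays with few frames 798 pairs were lower, and in separate fits for every strain 553 of 881 were. Of the 53 frames, 48 were lower in at least 12 strains, and all 53 were lower in at least 10. Over all genes 103 (1.71%) were lower in at least 12 strains. These include the 48 frames, and 47 lay outside Ty elements. In those separate fits 6 frames were lower in at least 12 strains. Labels do not say that arrays came from separate cultures, although the series text calls them biological replicates, and the tests measure the spread between arrays.

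By strain, every tested frame was lower in PR, M8, I14, YPS1009, YPS163, K1 and B1 (53 of 53 each) and in M22 (51 of 51). In M22 14 of these frames had a value on 1 array only, where the fit takes the spread from other strains, as it does for 17 of all 785 lower pairs. SB and Y12 had 52 of 53, Y10 had 49, K9 had 46 and YJM269 had 45. RM11a had 44 of 52, fewer than strains with a shallower signal. Y1 had 38, YJM308 had 23 and YJM789 had 14. The share of all genes, Ty frames included, that was lower in a strain lay between 2.97% in B1 and 10.7% in M22.

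Which frames made up the low counts differed between strains. In YJM789 all 14 frames that were lower were Gag frames. In YJM308 they were 19 Gag-Pol and 4 Gag frames. In RM11a and YJM269 all 26 Gag frames were lower in each, with 18 and 19 Gag-Pol frames.

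The frame with the most values among the Gag frames was YMR051C, on chromosome XIII, with 52 arrays. Its log2 ratio had a lowest value of -7.64, a median of -5.27 and a highest value of -0.43 over arrays, and it was lower in all 17 strains. In M22 it read -6.59, -6.50 and -7.64, and the fit gave -6.91 ± 0.31 (SE, limma adjusted p = 7.5e-20). In YJM789 it read -1.87, -0.43 and -2.06, and the fit gave -1.45 ± 0.31 (limma adjusted p = 4.0e-04). These arrays do not overlap, and even the strain nearest to DBY8268 passed the test for this frame.

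YBL005W-A on chromosome II and YDR316W-A on chromosome IV were taken next, by systematic name among the Gag frames with 51 arrays. YGR027W-A, YMR046C, YOR142W-A and YPL257W-A had as many. YBL005W-A was lower in 14 strains, with a strain mean of -6.68 in M8 at one end and -0.71 in YJM789 at the other. YDR316W-A was lower in 13 strains, between -7.79 in RM11a and -1.27 in YJM308. It was the noisier probe, with a standard error of 0.62 for a strain with 3 values, against 0.31 for YMR051C.

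YHR214C-C, the Gag frame of an element on chromosome VIII, had the deepest mean over strains, at -4.92 ± 2.23 (SD, n = 17). Its lowest array value was -9.20, in M22, and its highest was -0.25, in YJM789. It was lower in 16 strains and missed the threshold only in YJM308, where it read -1.09, -1.50 and -0.86 (limma adjusted p = 0.018). YBR012W-A on chromosome II had the fewest values of the Gag frames, with 44 arrays and none in M22, and was lower in 15 of 16 strains.

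The Gag frame nearest to DBY8268 was YMR046C, on chromosome XIII, at -3.41 ± 1.70 (SD, n = 17), and it was lower in 16 strains. It did not follow YMR051C in every strain. In Y12 it read -2.30, -0.81 and -0.59, while YMR051C read -3.25, -2.72 and -2.99. In YJM308 it read -2.13 and -1.92 on the 2 arrays with a value, while YMR051C lay between -1.59 and -0.99. YMR046C was thus above YMR051C in Y12 and below it in YJM308, on arrays that did not overlap. This was not particular to YMR046C. The Gag frame YNL284C-A had strain means of -1.51 in Y12 and -1.93 in YJM308, beside -1.23 and -2.02 for YMR046C.

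Among Gag-Pol frames, YDR365W-B on chromosome IV, YGR038C-B on chromosome VII and YNL054W-B on chromosome XIV had a value on all 54 arrays. YDR365W-B also had the highest mean of all Gag-Pol frames, at -2.20 ± 1.61 (SD, n = 17). These frames were lower in 10, 11 and 11 strains. In RM11a YDR365W-B read -0.47, -0.68 and 0.58, and the fit gave -0.19 ± 0.44 (SE, limma adjusted p = 0.82). In PR it read -3.97, -4.16 and -4.81, and the fit gave -4.31 ± 0.44 (limma adjusted p = 2.6e-10). The arrays of these strains did not overlap, although the Ty1 signals of RM11a and PR were close.

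YML039W, on chromosome XIII, had both the lowest mean of the Gag-Pol frames, at -3.63 ± 1.84 (SD, n = 17), and the fewest values of any frame, with 40 of 54 arrays. It was lower in 16 strains, of which M22, PR and SB had 1 array each with a value. It was lower in 13 strains when at least 2 values were required and in 7 in separate fits for every strain. Its values lay between -6.10 in PR and -0.29 in YJM789, and in YJM789 it read -0.30, -0.29 and -0.49 without passing the test (limma adjusted p = 0.38).

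Gag and Gag-Pol lie on the same RNA, and their log2 ratios were compared within each array. Gag frames had the lower median on 50 of 54 arrays, with a median difference of -1.39 between Gag and Gag-Pol, and in 16 of 17 strains. The difference was -2.13 ± 0.47 in K1, -1.93 ± 0.27 in M22 and -1.82 ± 0.52 in YJM269 (SD, n = 3 each). In YJM308 the mean difference went the other way but was smaller than its spread, at 0.62 ± 0.68. Its arrays read 0.91, -0.165 and 1.10, so replicate 2 had Gag below Gag-Pol. Y10 also had a difference smaller than its spread (-0.47 ± 0.66, n = 4). YPS163 had -0.38 ± 1.72 (n = 4), and -1.21 ± 0.55 without the array that lacked 36 frames. In the 25 elements paired by overlap, the Gag frame averaged below its own Gag-Pol frame in 24. The median difference was -1.24, with a range from -2.19 to 0.04.

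In YJM308 the 4 Gag frames that were lower than DBY8268 and the 22 that were not had a common median of -1.20 ± 0.37, while Gag-Pol frames had -1.82 ± 0.31 (SD, n = 3). On its arrays the Gag medians were -1.08, -1.62 and -0.91, and the Gag-Pol medians were -1.99, -1.46 and -2.01. YJM789 showed the opposite order, with -1.42 ± 0.95 for Gag and -0.38 ± 0.10 for Gag-Pol frames (n = 3). There the Gag medians were -1.90, -0.32 and -2.04, so replicate 2 stood above the other 2 arrays, while the Gag-Pol medians lay between -0.49 and -0.32.

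Gag-Pol frames themselves were sorted into 2 groups by their profile over strains. Each frame's 17 strain means were correlated with the median of the 26 Gag frames, leaving the frame itself out, and with the median of the Gag-Pol frames of Ty2, the family most like Ty1. In 8 frames the correlation was higher with Ty2 Gag-Pol than with Ty1 Gag. They are called Ty2-like here, for this pattern alone: YDR098C-B, YDR261C-D, YDR365W-B, YGR038C-B, YJR027W, YLR227W-B, YNL054W-B and YPR137C-B. Their r with Ty2 Gag-Pol was 0.94 to 1.00 and with Ty1 Gag 0.48 to 0.68. For the other 19 Gag-Pol frames r was 0.43 to 0.69 with Ty2 Gag-Pol and 0.88 to 0.97 with Ty1 Gag, and for the Gag frames 0.40 to 0.59 and 0.90 to 1.00. The least clear frame inside the group was YJR027W (0.94 and 0.68). The nearest outside it were YML045W (0.65 and 0.88) and YGR027W-B (0.69 and 0.97, in 16 strains, with no value in RM11a). The grouping was made after the values were seen, from the same ratios, so it is a description and no test was made between the groups. All points share the arrays and the DBY8268 sample.

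**Figure D2:**
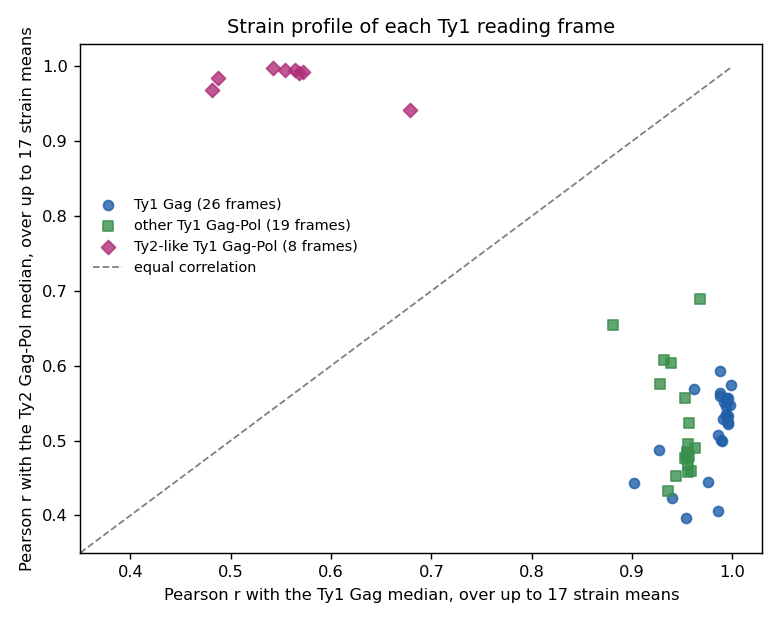
Pearson r of each Ty1 frame's strain means with the median of the Ty1 Gag frames (horizontal axis) and with the median of the Ty2 Gag-Pol frames (vertical axis), each over up to 17 strains. The 8 Ty2-like Gag-Pol frames lie above the dashed line of equal r, at 0.94 to 1.00 on the vertical axis, and the other 45 frames lie below it.

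The Gag-Pol groups parted most in RM11a. Its Ty2-like frames averaged -0.48 ± 0.52, its other Gag-Pol frames -5.51 ± 0.21 and its Gag frames -6.25 ± 1.17 (SD of array medians, n = 3). Without the array that lacked 35 frames these means were -0.77, -5.54 and -6.91 (n = 2). Within a single element the contrast was as large. In RM11a YNL054W-B (Gag-Pol) read -0.68, -0.76 and -0.02, against -7.21 and -6.30 for YNL054W-A, the Gag frame annotated in the same element. YGR038C-B (Gag-Pol) read -0.55, -0.91 and 0.24, against -7.31 and -6.65 for the Gag frame YGR038C-A. The Gag frames had no value on replicate 3, where the Gag-Pol frames were highest.

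YJM269 and SB showed the same split. In YJM269 Ty2-like frames averaged -0.33 ± 0.79, against -3.66 ± 0.47 for the other Gag-Pol frames (n = 3). YDR365W-B read 0.69, -0.64 and -0.65 there, and its partner Gag frame YDR365W-A read -4.72, -3.70 and -5.19. In SB the means were -1.73 ± 0.78 for Ty2-like and -4.65 ± 0.39 for other Gag-Pol frames. The other Gag-Pol frames were not uniform in these strains. YDR316W-B, YHR214C-B, YML045W and YPR158W-B lay between the 2 averages, at -3.79 to -2.30 in SB and -2.41 to -1.95 in YJM269. In RM11a they were at -5.50 to -5.38. K9 (-1.14 ± 0.26 and -2.87 ± 0.79) and YJM308 (-0.42 ± 0.55 and -1.95 ± 0.39) went the same way with smaller gaps.

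Y12 and Y10 showed the reverse. In Y12 Ty2-like frames averaged -3.36 ± 0.39, below the other Gag-Pol frames at -1.58 ± 0.06 (n = 3), and in Y10 they averaged -2.87 ± 0.94, against -1.48 ± 0.49 (n = 4). In Y12 YGR038C-B read -3.80, -3.80 and -2.97, while YMR050C, a Gag-Pol frame outside the group, read -1.57, -1.66 and -1.55. In M22, PR and M8, the strains with the deepest Ty1 signal, Ty2-like frames were low too, at -4.35 ± 0.25, -4.42 ± 0.41 and -4.54 ± 0.29. In YJM789 Ty2-like and other Gag-Pol frames were close, at -0.42 ± 0.17 and -0.40 ± 0.12 (n = 3), and so they were in YPS163 without its array of 36 missing frames, at -4.39 ± 0.31 and -4.43 ± 0.26 (n = 3). With that array they were at -4.17 ± 0.51 and -3.64 ± 1.59 (n = 4).

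**Figure D3:**
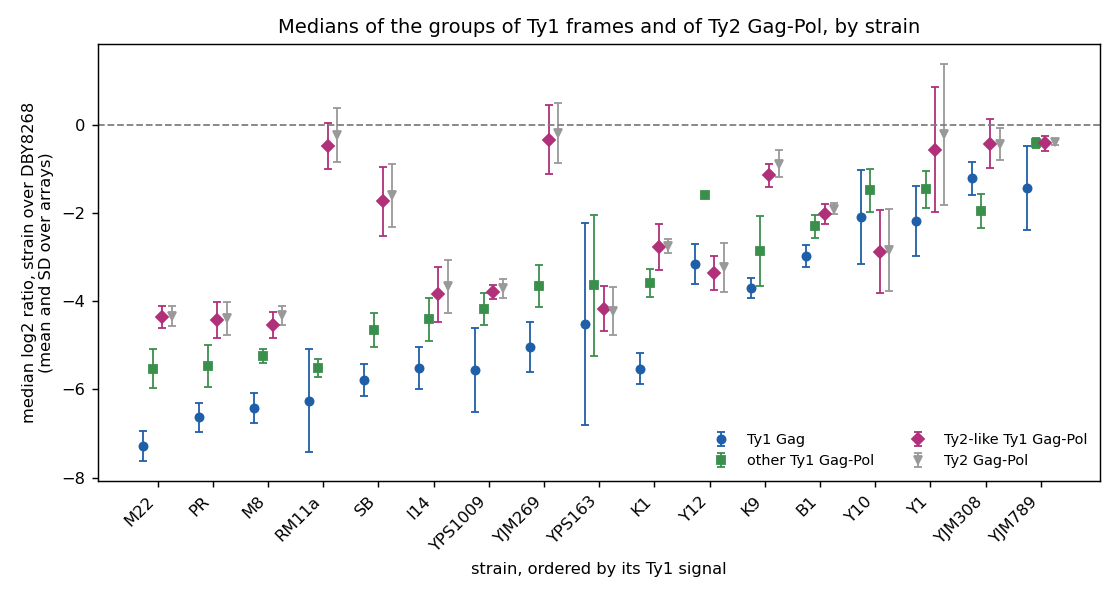
Median log2 ratio (strain over DBY8268) of the Ty1 Gag frames, the other Ty1 Gag-Pol frames, the Ty2-like Ty1 Gag-Pol frames and the Ty2 Gag-Pol frames in each strain, as the mean and SD over arrays of the median on each array, with strains ordered by Ty1 signal. Ty2-like frames lie beside Ty2 Gag-Pol in every strain and part from the other Ty1 Gag-Pol frames upward in RM11a, SB and YJM269 and downward in Y12 and Y10.

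On single arrays, which are the arrays that the grouping came from, the Ty2-like frames lay close to Ty2 Gag-Pol. The medians of the 8 Ty2-like frames and of the 8 Ty2 Gag-Pol frames differed by at most 0.53 on any of the 54 arrays, while the other Ty1 Gag-Pol frames were more than 1 away from Ty2 Gag-Pol on 27. In RM11a the Ty2-like median was -0.66, -0.88 and 0.11 on the 3 arrays, beside -0.47, -0.68 and 0.46 for Ty2 Gag-Pol. Ty2 Gag frames had a mean above 0 in 7 strains and up to 2.06 ± 0.40 in YJM269 (n = 3), where Ty1 Gag averaged -5.04 ± 0.56. In YJM308 Ty2 Gag averaged -1.65 ± 0.15, below Ty2 Gag-Pol at -0.43 ± 0.36 (n = 3 each). The profile of Ty1 Gag correlated with that of Ty2 Gag at r = 0.27 over the 17 strains. Over the Ty2 family, 155 of 272 frame and strain pairs (57.0%) were lower than DBY8268 and 7 (2.57%) higher. The shares were 4.88% and 3.86% over all genes, Ty frames included, and 3.82% and 3.91% outside Ty elements. Which stretch of an element each oligonucleotide matches was not analysed here.

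**Figure D4:**
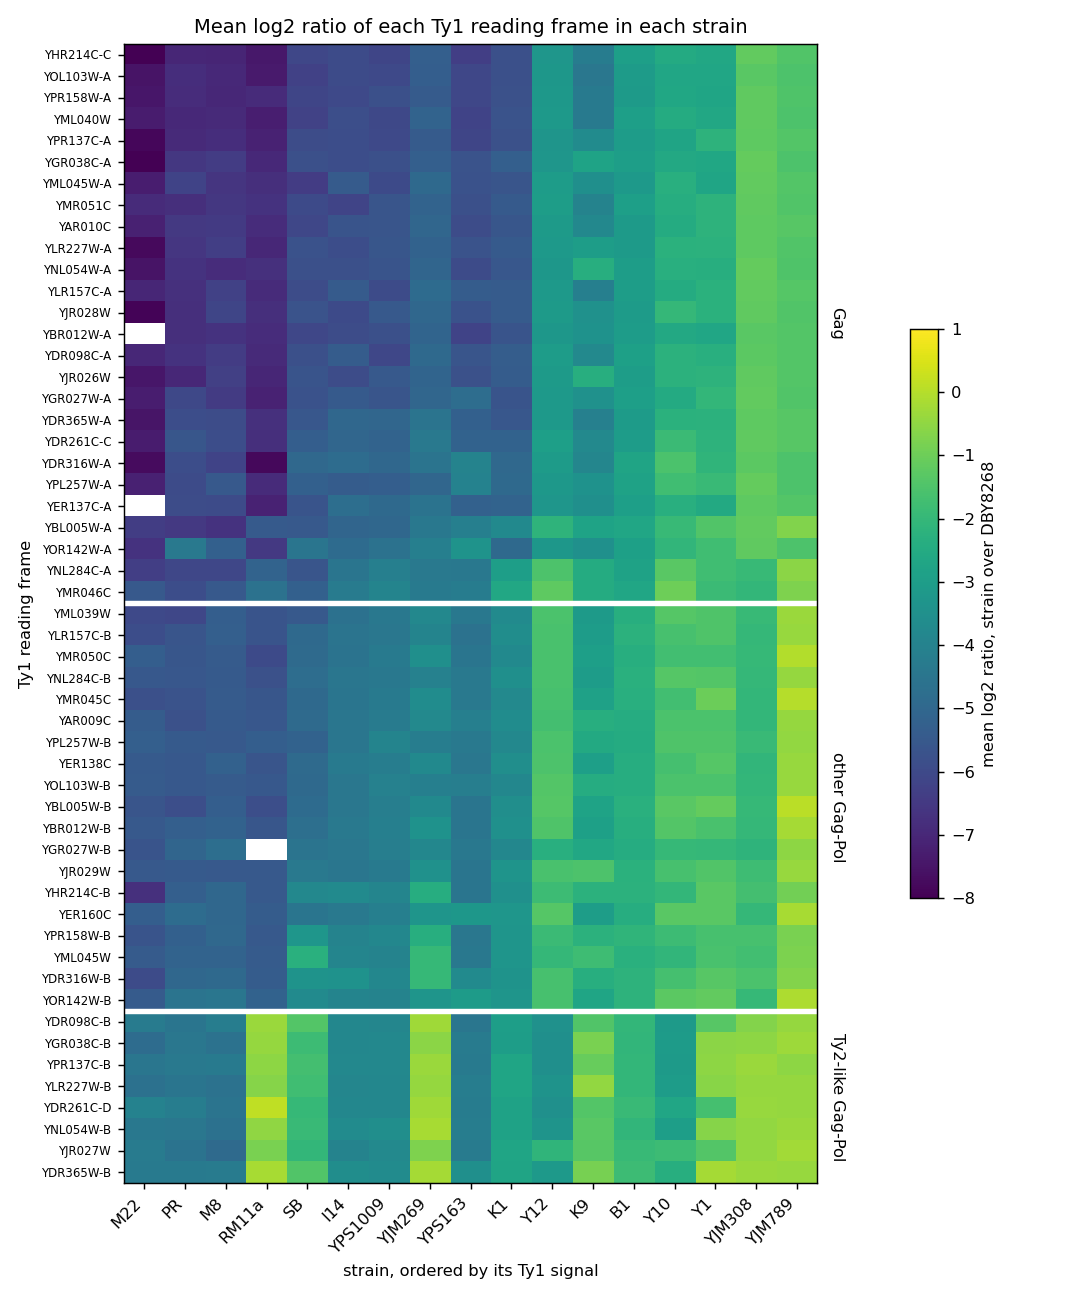
Mean log2 ratio (strain over DBY8268, colour) of the 53 Ty1 frames (rows, in the groups Gag, other Gag-Pol and Ty2-like Gag-Pol and ordered by mean) in the 17 strains (columns, ordered by Ty1 signal), with white cells where a frame had no value in a strain. The 8 rows at the bottom are close to 0 in RM11a and YJM269, where the Gag rows reach -7.79 and -5.41, and YMR046C at the end of the Gag rows is above YHR214C-C at their start in K1 (-2.59 and -5.80).

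Set against the mean of the 17 strains in the same fit, 201 of the 898 frame and strain pairs were lower and 239 higher. These are 22.4% and 26.6%, beside 1.07% and 1.59% of pairs of all genes and 0.783% and 1.25% outside Ty elements. In separate fits for every strain 53 Ty1 pairs were lower and 13 higher, and with arrays scaled to the same spread 110 and 133. Frames below the mean were found in M8 (48), M22 (47), RM11a (41), PR (40), SB (14), YPS163 (8), I14 (2) and YPS1009 (1). Frames above it were found in YJM789 (53), YJM308 (50), Y1 (43), Y10 (40), Y12 (19), B1 (10), YJM269 (9), RM11a (8) and K9 (7). K1 had 0 in either direction, with a median difference of -0.42 and, at an unadjusted p under 0.05 in limma, 18 frames below the mean and 2 above it. RM11a was the strain with frames in both directions, 23 Gag and 18 other Gag-Pol frames below the mean and 8 Ty2-like frames above it. YJM269 had 8 Ty2-like frames above the mean, and Y10 and Y12 had 0. For YMR051C the difference from the mean was 3.41 ± 0.31 in YJM308 (SE, limma adjusted p = 1.3e-09) and -2.31 ± 0.31 in M22 (limma adjusted p = 7.7e-07).

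Against the oak strain YPS163, 304 of 845 pairs were higher (36.0%) and 8 lower (0.947%), with 1.47% and 0.533% over all genes. Outside Ty elements these shares were 0.951% and 0.521%. Higher frames numbered 50 in YJM789, 48 in YJM308, 46 in Y1, 39 in Y10, 36 in B1, 31 in Y12 and 29 in K9. They numbered 9 in YJM269, 8 in RM11a, 7 in SB and 1 in K1, and 0 in M22, PR, M8, I14 and YPS1009. Those in RM11a were all Ty2-like frames, as were 8 of 9 in YJM269. The 8 lower pairs depended on single arrays. There was 1 without the array of YPS163 that lacked 36 frames, 3 without replicate 2 of YPS163, 4 without replicate 3 of M22 and 21 without replicate 4 of YPS163. Between the oak strains 0 of 53 frames passed in limma, also at an unadjusted p under 0.05, and the median difference of YPS1009 minus YPS163 was 0.20.

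All 50 frames with a value in every strain differed between strains in the F-test (limma, adjusted p under the threshold of 0.01), as 17.7% of all genes did. Outside Ty elements 750 of 4579 genes did. Values for the named frames lay between an adjusted p of 6.7e-17 for YMR046C and 1.2e-07 for YDR316W-A.

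Copies differed less than strains did. Over 2613 values on 52 arrays, without the 2 that had the fewest frames, strain took 67.3% of the sum of squares, frame 14.2%, the combination of frame and strain 11.5%, arrays of a strain 3.10% and the remainder 3.86%. The SD over frames within an array had a median of 0.92 and ranged from 0.24, on replicate 2 of YJM789, to 2.90, on replicate 3 of RM11a. Within the groups it was smaller, with a median of 0.55 for Gag, 0.32 for other Gag-Pol and 0.22 for Ty2-like frames. The mean offset of a frame from the Ty1 signal of its array ran from -1.13 for YHR214C-C to 1.40 for YDR365W-B, on the log2 scale. Medians over strain means were -4.55 for Gag frames (range -4.92 to -3.41), -3.45 for other Gag-Pol frames (-3.63 to -3.05) and -2.44 for Ty2-like frames (-2.50 to -2.20).

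A frame could lack a value because its spot failed the authors' filters. Of 2862 possible Ty1 values 214 were missing (7.48%), fewer than the 19.1% over all genes. Gag frames lacked 9.69% and Gag-Pol frames 5.35%, with 1.62% for the Ty2-like group. Frames had values on 40 (YML039W) to 54 arrays, with a median of 51, close to the median of 50 over all genes. Of the 53 frames, 50 had a value in every strain. All frames were present on 25 arrays and 1 or 2 were missing on 18. The 4 emptiest arrays, replicate 1 of YPS163 (36 missing), replicate 3 of RM11a (35), replicate 1 of Y10 (22) and replicate 3 of M22 (21), held 53.3% of the missing values.

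Missing values were spread unevenly over strains. M22, with the deepest signal, lacked 28.3% of its Ty1 values, with 5, 19 and 21 frames missing, beside 25.5% of all its values. YJM789 lacked 0% of Ty1 values and B1 0%, while YJM789 lacked 32.3% of the values of all genes. Over the 17 strains the Ty1 missing share correlated with the all-gene missing share (r = 0.67) and with the Ty1 signal (r = -0.47), given as descriptions only. A median over fewer frames can differ by which frames remain, and the part of this in the signal of M22 was not tested.

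**Figure D5:**
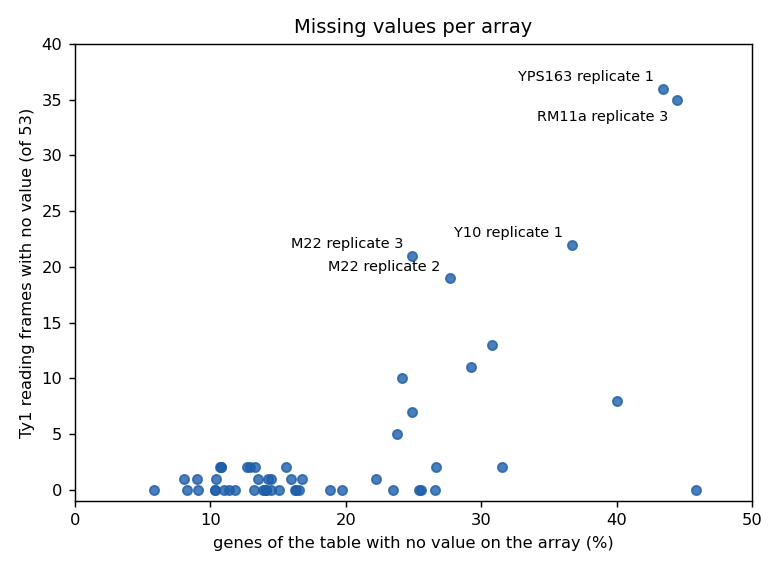
Number of Ty1 frames with no value (of 53) against the share of all genes in the table with no value (percent) on each of the 54 arrays. Replicate 1 of YPS163 and replicate 3 of RM11a lack 36 and 35 frames, and all 3 arrays of YJM789 lack 0 frames although over 25% of all genes are missing on each.

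Genes known from genetic work to act on Ty1 passed the test in few strains. The list held 45 host factors, all on the arrays. Of their 750 gene and strain pairs, 19 (2.53%) were lower and 22 (2.93%) higher than in DBY8268. The shares were 3.82% and 3.91% over genes outside Ty elements, and 4.88% and 3.86% over all genes, Ty frames included. No host factor was called in the same direction in 6 or more strains, while 4.19% of all genes were lower and 2.47% higher in that many. Of the 253 genes lower in that many strains, 174 lay outside Ty elements. The median of the host factors' means over strains was -0.07, beside -0.03 over all genes.

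Among activators of transcription, a list of 8, 4 pairs were lower and 7 higher. TEC1, which encodes the partner of Ste12 at Ty1 promoters, averaged 0.57 ± 1.32 over strains (SD, n = 17) and was higher in 3. It reached 3.73 in YJM789 and -0.50 in M22, although its r with the Ty1 signal over strains was 0.07. STE12, for the mating and filamentation activator, averaged 0.40 ± 0.55 and was also higher in 3 strains, with 1.72 in YJM789. TYE7, for a basic helix-loop-helix activator, averaged -0.70 ± 0.40 and was lower in 3. These and the genes of the next paragraph other than DHH1 and FUS3 were chosen after their values were seen.

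Coactivator and remodelling subunits (10 genes) had 2 lower and 5 higher pairs, all 5 higher ones in SWI1, a SWI/SNF subunit. Histone regulators and chaperones (8 genes) had 1 and 2. Factors that restrict transposition (13 genes) had 10 and 4, among them RTT107, a genome stability factor that was lower in 5 strains and higher in 2, and ELG1, of an alternative clamp loader, lower in 4. RNA turnover and translation factors (6 genes) had 2 and 4. DHH1, for an RNA helicase of decapping, had the lowest mean of the host factors, at -0.84 ± 0.74 (SD, n = 17), and passed the test in 0 strains, with 4 at an unadjusted p under 0.05 in limma. FUS3, for the mating kinase that restrains Ty1, had the highest, at 1.67 ± 3.02, but from 7 arrays in 5 strains, with 7.07 on 1 array of the haploid YJM789.

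The nearest genes outside Ty elements on each side of a Ty1 frame, by the order of genes in assembly R64, were described as well. Of these 51 neighbours none was called in 12 strains. They had 47 lower pairs of 823 (5.71%) and 20 higher (2.43%), beside 3.82% and 3.91% over genes outside Ty elements. Over all genes, Ty frames included, the shares were 4.88% and 3.86%. The means of the neighbours over strains had a median of -0.16. YBR013C, next to YBR012W-B, had the lowest, at -1.50 ± 0.69 (SD, n = 17), and was lower in 11 strains. It was singled out after its values were seen.

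Among 4579 genes outside Ty elements with a value in all strains, the gene with a profile most like the Ty1 signal was PLC1, for phospholipase C (Pearson r = 0.93, Spearman rho = 0.93 over 17 strain means). Its mean over strains was -3.15 ± 1.13 (SD), from -5.07 in RM11a to -1.13 in YJM308, and it was lower than DBY8268 in 14 strains. ARH1, for a mitochondrial oxidoreductase, followed (r = 0.91, rho = 0.84), with a mean of -2.92 ± 1.01, from -4.48 in RM11a to -1.07 in YJM308, and was lower in 16 strains. Both were below 0 on nearly every array with a value, 51 of 52 for PLC1 and 50 of 50 for ARH1.

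TPT1, for a transfer RNA splicing phosphotransferase, came next with r = 0.86, but its strain means lay only between -0.54 and 0.39. The lowest r were those of YLR179C (-0.77, strain means lowest at -1.28 in K9 and highest at 2.41 in I14), SSZ1, for a ribosome-associated chaperone (-0.73, from -0.54 to 0.12), and SPC24, of the kinetochore (-0.71, from -0.98 to 0.88). The median r over all compared genes was 0.10. Without the 2 strains farthest from the median signal the r of PLC1, ARH1 and TPT1 were 0.90, 0.86 and 0.82, and those of YLR179C, SSZ1 and SPC24 were -0.82, -0.48 and -0.52. These genes were chosen for their r, which is therefore a description.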

How the data were processed

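Log2 ratios of strain over DBY8268, as deposited by the authors, were used with no further scaling. Per the study's methods the authors kept unflagged spots with a pixel R2 above 0.1 and centred each array by region. A shift of all transcripts together cannot be seen in such ratios. Dye-reversed arrays had already been turned, since all 38 opposite-dye pairs of arrays of a strain correlated above 0. The number of arrays limits the precision (median residual SD 0.43 over genes).

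limma 3.58.1 in R 4.3.3 fitted a coefficient per strain over all genes and 54 arrays, with Benjamini-Hochberg adjustment within a strain at 0.01. Genes with no residual degrees of freedom were not tested, which left 6033. The ratio against 0 leaves out the spread of DBY8268, which had no array of its own. For the mean of strains, genes were centred on the mean of their strain means. The fit was first checked on simulated ratios. Symbols and gene order came from R64 (5824 of 6264 names matched).

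Members and lists were chosen with earlier results of these data known. Named frames were, for Gag and Gag-Pol each, the 3 with the most values, the highest and lowest means and the fewest values. Ties in the number of values were broken by systematic name. Named host factors were those called in 6 strains and the extremes, neighbours those called in 12, and profiles the 3 highest and 3 lowest r. Alternatives covered centring, scaling, blocks, filters, dyes, slides and left-out arrays.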

Additional observations from a re-analysis of the deposited data

Results flagged for a closer look

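Samples far from the others of their strain could be sought only in M8, Y10 and YPS163, which had 4 arrays, by the gap of the outermost array over the range. In M8 the Ty1 signal of replicate 2 (-5.23) stood apart from the other arrays, which lay between -5.64 and -5.60 (gap over range 0.890), as did its Gag-Pol median (-4.83, gap over range 0.914). The other Gag-Pol frames of YPS163 were at -1.27 on replicate 1 and between -4.73 and -4.25 on the other arrays (0.861), and YDR365W-B was at -1.18 there, with -4.58 to -4.12 on the others (0.865). The number of missing frames stood apart on replicate 1 of M8 (13, with 0 to 2 on the others, 0.846), replicate 1 of Y10 (22, with 0 on the others, a gap over range of 1) and replicate 1 of YPS163 (36, with 0 to 2 on the others, 0.944). Chance alone sets apart about 1 in 20 such groups, and 7 of 42 stood apart here, on arrays that share their frames.

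Effects against DBY8268 differed between strains in limma's F-test for each named frame with a value in all strains. The adjusted p was 2.3e-16 for YMR051C, 2.8e-13 for YBL005W-A, 1.2e-07 for YDR316W-A, 6.7e-17 for YMR046C, 2.8e-13 for YHR214C-C, 2.4e-10 for YDR365W-B, 6.2e-14 for YGR038C-B, 5.7e-13 for YNL054W-B and 8.8e-12 for YML039W.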

How the results depend on the processing

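All 184 strain values of the Ty1 signal under the alternatives stayed below 0, 145 within 1 SD of the value reported. The 6 reading frames present on all 52 better-filled arrays include the Ty2-like YDR365W-B, YGR038C-B and YNL054W-B, so the mix of frame groups changes too. In RM11a the median of the 6 was -3.13, -3.04 and 0.24 on its arrays. The last is replicate 3, outside the 52, where only those Ty2-like frames among the 6 had a value. From these 6 frames the signal was -2.15 in B1, -3.82 in I14, -3.19 in K1, -1.77 in K9, -5.24 in M22, -4.84 in M8, -4.74 in PR, -1.98 in RM11a, -2.63 in SB, -0.87 in Y1, -1.28 in YJM269, -0.88 in YJM308 and -3.83 in YPS1009. With arrays scaled to the same spread it was -2.99 in B1, -5.78 in I14, -5.21 in M22, -6.35 in M8, -6.42 in PR and -4.91 in RM11a. Oyster 550 arrays alone gave -5.17 in I14, -6.00 in M22, -4.89 in RM11a, -3.37 in Y10 and -4.74 in YPS1009, series yG6 alone gave the same values in I14, Y10 and YPS1009, and yG5 alone gave -5.23 in M8. Each of these Oyster 550 values came from 1 array, in RM11a from replicate 3, which lacked 35 frames. The mean over frames gave -4.24 in K1 and -4.57 in RM11a, and adjustment for probes gave -4.24 in K1, -6.15 in M22 and -4.81 in RM11a. Without the Ty2-like frames, an alternative chosen after seeing the data, it was -4.42 in K1, -6.13 in M22, -5.74 in M8, -6.16 in RM11a, -1.31 in YJM789 and -4.72 in YPS1009.

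The difference of Gag minus Gag-Pol in Oyster 550 alone was -0.48 in B1, -2.17 in RM11a, -1.21 in Y1, -1.41 in Y10 and -2.41 in YJM269. Each of these came from 1 array, in RM11a from replicate 3, which lacked 35 frames. Without the Ty2-like frames the difference was -1.11 in I14, -1.16 in PR, -0.74 in RM11a and -1.14 in SB. In RM11a its arrays read -1.47, -1.265 and 0.515, the last on replicate 3. Over frames of the same element the difference was -2.38 in M22 and -1.22 in PR, and with means -2.56 in RM11a, -2.18 in SB, -0.86 in Y12 and -2.41 in YJM269.

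Counts of calls moved by over 1.5 times under these settings. With genes present on all arrays only 3 Ty1 frames were left by construction, and counts were 33 lower than DBY8268 with 1 frame in at least 12 strains, 11 below and 16 above the mean of strains, 0 below and 22 above YPS163, and 3 of 3 in the F-test. In separate fits for every strain, 6 frames were lower in at least 12 strains, 53 pairs were below and 13 above the mean, and 0 were below and 156 above YPS163. Scaling gave 110 below and 133 above the mean, and 2 below and 129 above YPS163. Pairs lower than YPS163 numbered 33 at a false discovery rate of 0.05, 35 with the replicate block and 1 without the 2 arrays with few frames, an alternative chosen after seeing the data. The cause was not tested.

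Leaving out single arrays gave 771 to 798 pairs lower than DBY8268, 46 to 49 frames in at least 12 strains, 173 to 216 pairs below and 222 to 252 above the mean, 1 to 21 below and 246 to 337 above YPS163, and 38 to 50 frames in the F-test. The replicate block gave 804 pairs lower than DBY8268. Replicate numbers were read as names only, since the labels do not tie them to a shared culture. With strain means removed, same-numbered arrays of different strains correlated at a mean r of 0.08 and differently numbered ones at -0.03. Both went as low as -0.62. Arrays of different strains on the same slide correlated at a mean r of 0.12. The part of number, dye and slide in these correlations was not tested.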
